A study of Mus musculus with 8 samples.

Results

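Titin (Ttn) had 370 polyadenylation adjacent sites (APSs, the clustered positions at which reads of polyadenylated RNA begin), out of 56483 APSs in the table. They are all APSs that carry the gene symbol Ttn, selected on that symbol and on no fold change or level, and all 370 lie on the minus strand of chromosome 2, ordered here from the annotated 3′ end of the gene towards its 5′ end. No other gene came close, the next being nebulin (Neb) with 187 APSs. The 370 sites made up 0.655% of all APSs and held 234304 of 23714091 reads (0.988%). The gene itself was chosen by its read counts along the gene in these same 8 libraries, so its levels are a description, and the comparisons below are no independent support for a change in Ttn.

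Male mice with a whole-body knockout (KO) of one catalytic subunit of AMP-activated protein kinase, AMPKα1 or AMPKα2, were compared with wild-type (WT) controls of the same model by WTTS-seq (whole transcriptome termini site sequencing), a method that sequences RNA from the start of its poly(A) tail. There were 2 libraries in each of AMPKα1 KO, AMPKα1 WT, AMPKα2 KO and AMPKα2 WT, each from the gastrocnemius muscle of a separate adult mouse. The labels give C57BL/6 as the strain background of all 8 libraries, whereas the study's methods give 129S2/SvPas for the AMPKα1 KO mice and C57BL/6 for the AMPKα2 KO mice. The AMPKα1 KO mice were about 6 weeks of age and the AMPKα2 KO mice about 8 weeks. The age of the WT mice is not given in the sources used here. Model, strain, age and any sequencing batch therefore cannot be told apart where AMPKα1 libraries are set beside AMPKα2 libraries.

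Libraries held between 2311242 reads (AMPKα1 WT 1) and 3549156 reads (AMPKα2 WT 1). AMPKα2 KO 1 stood apart from the other AMPKα2 libraries in composition, with a TMM scaling factor (trimmed mean of M-values, by which edgeR evens out libraries) of 0.747 over genes against 1.00 to 1.15 in the other 3, and AMPKα1 WT 1 had the lowest factor of its model, 0.808. Antisense APSs took 1.34 to 2.24% of the reads of other genes in the AMPKα1 libraries and 17.5 to 23.0% in the AMPKα2 libraries. All 9 markers of skeletal muscle fibres were present, with a summed level of 73376 to 110388 RPM (reads scaled to a library of 1000000) in AMPKα1 and 45859 to 58803 in AMPKα2. Cardiac markers summed to 1.83 to 26.2 RPM, with Nppa and Myl7 at 0. Prkaa1, the gene for AMPKα1, had 0, 82, 15 and 0 reads in AMPKα1 KO 1, KO 2, WT 1 and WT 2, and Prkaa2, the gene for AMPKα2, had 40, 71, 87 and 62 reads in the same order in AMPKα2. These are 3′ end tags, which need not lie in the deleted part of either gene, so they do not check the genotype.

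Titin is the giant elastic protein of the sarcomere. A single molecule runs from the Z-disc, where its N-terminal end is anchored, to the M-band, where its C-terminal end carries a kinase domain, and the I-band part between them acts as a molecular spring. The gene is spliced in many ways, mainly within the I-band part, and the full-length transcripts share one 3′ end, which encodes the M-band part and the 3′ untranslated region. Exons near the 3′ end of the gene therefore encode the M-band and A-band parts, and exons near the 5′ end encode the Z-disc part.

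In GRCm38, Ttn lies on the minus strand at chr2:76703980-76982547, which is 278568 bases with 345 exons after overlapping exons of all transcripts were merged. Its full-length transcripts Ttn-203 (347 exons) and Ttn-205 (313 exons) end in a terminal exon of 1350 bases at chr2:76703980-76705329. Ttn-201 (192 exons) and Ttn-204 (312 exons) end in the same exon, Ttn-204 at position 76705031. Several annotated transcripts stop far upstream. Ttn-202, with 45 exons and the layout of the short isoform known as novex-3, ends at position 76913944, and Ttn-207, with 11 exons, ends at position 76964290. The last 30 bases of these transcripts, taken from GENCODE and written 5′ to 3′, are shown because each has a Ttn APS next to it, and capitals mark the hexamers AATAAA or ATTAAA, the usual polyadenylation signals.
Ttn-203 end, chr2:76703980-76704009: aaAATAAAgcaagctatctgcacctcaaaa
Ttn-202 end, chr2:76913944-76913973: cagcatgATTAAAcaccttcttggataccc
Ttn-207 end, chr2:76964290-76964319: aactaaaaagtaaaatgattcattggtctt

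Most Ttn APSs lay in none of these places. The 30 transcript bases just downstream of 7 of the internal exon APSs with the most reads are given next, with the run of A that directly follows each site in capitals. These are the 7 with the most reads among sites with 30 bases left in their exon, which leaves out APS 76775609, the internal exon site with the second most reads.
76742310, chr2:76742280-76742309: AAggaaaaagtgacccgagagtgcttggca
76945313, chr2:76945283-76945312: AAAAgaaaaacaaaagccagacattgtctt
76765901, chr2:76765871-76765900: AAAAAgaaaagcatgcagtccgctgggtcc
76753460, chr2:76753430-76753459: AAAgaaaggcctgcggtgggtgagagcaac
76747326, chr2:76747296-76747325: AAAAcgttgcaggggagaaatcagttacta
76726718, chr2:76726688-76726717: AAAgaaaagcacaagatgggtaaaagtgat
76710580, chr2:76710550-76710579: AAAAgaaatcaaaacgacagagacaagtga
The same stretch follows for 3 internal exon sites that had no read in any AMPKα1 library and the lowest p-values in AMPKα2.
76781011, chr2:76780981-76781010: AAAccgaaagtcttagaacgtaccaaagga
76785715, chr2:76785685-76785714: AAAgaaagacaagaccaagcccgactcaga
76791600, chr2:76791570-76791599: AAAAAtccacagtgacaatcacagacagta

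By position, 5 of the 370 APSs lay in the terminal exon or downstream of it, 273 in other exons and 92 in introns. Together their clusters covered 81.9% of the exon bases of the gene, 8.98% of its intron bases, and touched 311 of its 345 exons. A Ttn cluster had a median width of 253.5 bases and the widest spanned 7092 bases, whereas other APSs had a median width of 29 bases. Among Ttn APSs, 278 (75.1%) were wider than 100 bases, against 16.1% of other APSs, and 11 were wider than 1000 bases, against 24 in all the rest of the table. The lowest Ttn APS had 17 reads over the 8 libraries and the median Ttn APS 254, against a median of 48 over all APSs. No plus-strand APS lay inside the gene, and no minus-strand APS inside it was assigned to another gene.

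The reads assigned to Ttn differed between the models. In AMPKα1 they numbered 19313 and 19406 (KO) against 8423 and 22224 (WT), and in AMPKα2 54497 and 44044 (KO) against 43932 and 22465 (WT). In RPM, Ttn stood at 5629 and 5917 (KO) against 3644 and 6474 (WT) in AMPKα1, and at 21348 and 17002 (KO) against 12378 and 8751 (WT) in AMPKα2. On this scale the KO mean was 5773 ± 203 (SD, n = 2) and the WT mean 5059 ± 2001 in AMPKα1, and the AMPKα2 means were 19175 ± 3073 for KO and 10565 ± 2565 for WT. Each of the 4 AMPKα2 libraries was above each of the 4 AMPKα1 libraries. The 2 AMPKα1 groups overlapped, and both AMPKα2 KO libraries were above both WT libraries. In muscle tissue, fewer fibres and less RNA per fibre cannot be told apart.

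The terminal exon held a much larger part of the Ttn reads in AMPKα1 than in AMPKα2. Its share was 25.2% in KO 1, 19.0% in KO 2, 42.9% in WT 1 and 27.4% in WT 2 of AMPKα1, and 2.16%, 2.94%, 6.31% and 4.80% in the same order in AMPKα2. The lowest share in AMPKα1 was thus above the highest in AMPKα2. Counting error was small beside these gaps, as the widest 95% Wilson interval, that of AMPKα1 WT 1, ran from 41.9 to 44.0%. Sites in internal exons took 40.0 to 65.3% of Ttn reads in AMPKα1 and 82.8 to 86.3% in AMPKα2, while introns took 10.4 to 19.0% and 10.2 to 12.4%. In absolute numbers, the terminal exon had 4858, 3687, 3617 and 6080 reads in AMPKα1 and 1175, 1294, 2770 and 1078 in AMPKα2. In both models the KO libraries had lower terminal shares than the WT libraries, by 13.1 percentage points in AMPKα1 and 3.0 in AMPKα2. The AMPKα1 difference was 5.28 points without WT 1 and 20.9 points without WT 2. The exact permutation test (two-sided) gave p = 0.333 in each model, the smallest p that 2 libraries against 2 can give.

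**Figure D1:**
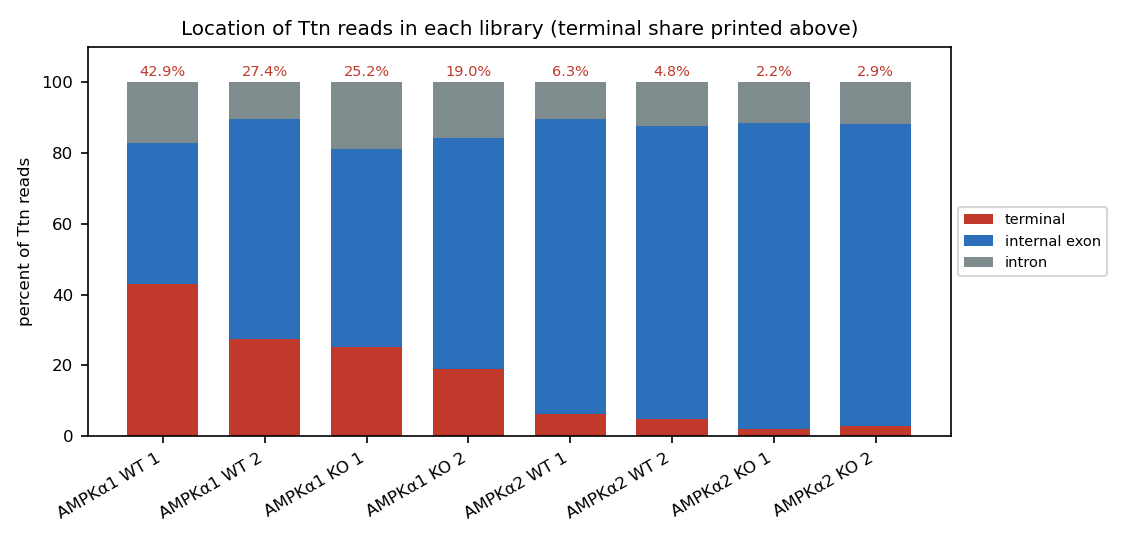
Percent of Ttn reads on terminal, internal exon and intron APSs (colours) in each of the 8 libraries, with the terminal share printed above each bar. The terminal share was 19.0 to 42.9% in the AMPKα1 libraries and 2.16 to 6.31% in the AMPKα2 libraries.

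Reads of other genes moved in the same direction between the models. All genes other than Ttn together had 77.1 to 85.4% of their sense reads on terminal sites in AMPKα1 and 53.5 to 61.9% in AMPKα2. Nebulin (Neb), the giant protein that spans the thin filament, has 187 APSs (2 terminal, 96 in internal exons and 89 in introns), and its terminal share was 9.02, 13.1, 28.2 and 16.7% in AMPKα1 KO 1, KO 2, WT 1 and WT 2 and 4.87, 5.76, 7.98 and 7.11% in AMPKα2. Ttn and Neb had lower terminal shares in KO than in WT libraries of both models. All genes other than Ttn together leaned the same way. Their shares in AMPKα2 were 53.5 and 59.2% (KO) against 60.2 and 61.9% (WT). In AMPKα1 they were 80.54 and 77.1% (KO) against 85.4 and 80.51% (WT), where the groups just overlapped. With 2 libraries a group, none of these orders can pass an exact test.

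The terminal site itself, APS 76703983 (chr2:76703973-76704031), lies 3 bases from the end of Ttn-203 and was the strongest Ttn site in every AMPKα1 library. It had 4762, 3605, 3518 and 5973 reads in AMPKα1 KO 1, KO 2, WT 1 and WT 2, and 789, 999, 2498 and 839 in AMPKα2, where WT 1 was well above the other 3. The log2 fold change of KO over WT was −0.77 (SE 0.37) in AMPKα1, with an adjusted p of 0.543, and −0.47 (SE 0.37) in AMPKα2, with an adjusted p of 0.772 (edgeR quasi-likelihood test, Benjamini-Hochberg over all APSs tested). Without AMPKα2 WT 1 the second value was 0.03. The other terminal-exon sites were weaker. APS 76704102 had 75, 51, 53 and 83 reads in AMPKα1 and 123, 145, 97 and 139 in AMPKα2. APS 76704597 had 21, 31, 36 and 24 reads in AMPKα1 and 10, 34, 34 and 24 in AMPKα2. Further upstream in the same exon, APS 76705113 had 10 reads in AMPKα1 WT 1 and 0 in the other AMPKα1 libraries, but 245, 112, 133 and 74 in AMPKα2. APS 76704510 was at 0 in AMPKα1 and had 8, 4, 8 and 2 reads in AMPKα2.

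The 3′ ends of the short transcripts were read in both models at levels far below those of the terminal site. APS 76913943, 1 base past the end of Ttn-202 and so counted as intronic, had 22, 101, 86 and 107 reads in AMPKα1 and 83, 113, 145 and 100 in AMPKα2. Its log2 fold change was −1.31 (SE 1.01) in AMPKα1 and −0.02 (SE 0.33) in AMPKα2. APS 76964276, 14 bases past the end of Ttn-207, had 0, 0, 8 and 17 reads in AMPKα1 and 3, 6, 12 and 11 in AMPKα2. In AMPKα1 that is 6.02-fold lower in KO, counting each KO library at a floor of 3 reads. This fold does not cover the spread between mice. Ttn-215, whose annotated end is incomplete, has APS 76965095 at its end, with 61, 43, 33 and 33 reads in AMPKα1 and 36, 52, 18 and 12 in AMPKα2. The APSs within 50 bases of the incomplete ends of Ttn-208, Ttn-212, Ttn-213 and Ttn-220 had 0 reads in AMPKα1, apart from 16 reads of APS 76849250 in WT 1, and no more than 50 reads in any AMPKα2 library.

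**Figure D2:**
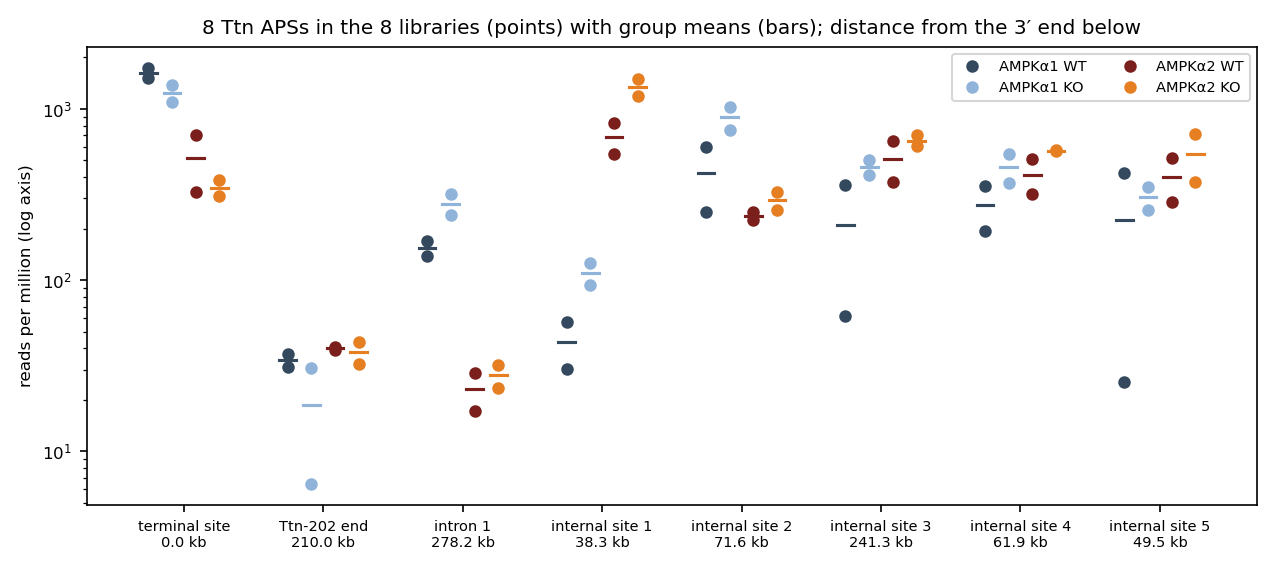
Level of 8 Ttn APSs (RPM, log axis) in the 8 libraries, with a point per library and a bar for the mean of the 2 libraries of a group. The internal sites are, from left to right, 76742310, 76775609, 76945313, 76765901 and 76753460. The terminal site has 1099 to 1740 in AMPKα1 and 309 to 704 in AMPKα2, and site 76742310 has 30.3 to 126 and 543 to 1506.

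Outside the terminal exon, the sites with the most reads were not the same in both models. APS 76742310 was the strongest Ttn site in every AMPKα2 library and the widest of all, 7092 bases within exon 275 of Ttn-205, an exon of 17106 bases that encodes A-band sequence. It had 3845, 3078, 2929 and 1393 reads in AMPKα2 KO 1, KO 2, WT 1 and WT 2, but 323, 413, 70 and 196 in AMPKα1. APS 76747326, in the same exon, had 2690, 1467, 1878 and 866 reads in AMPKα2 and 39, 163, 10 and 12 in AMPKα1. The 5 APSs of this exon held 25357 reads, which were 13.0 to 15.9% of the Ttn reads of the AMPKα2 libraries and 0.950 to 3.11% of those of the AMPKα1 libraries.

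APS 76775609 in exon 241, only 188 bases wide, leaned the other way. It was the strongest internal site of the AMPKα1 libraries, with 2593, 3376, 578 and 2056 reads, and had 659, 844, 887 and 580 in AMPKα2. The remaining sites among the 10 with the most reads were read in all 8 libraries, with AMPKα1 WT 1 the lowest AMPKα1 library at all but 1 of them. APS 76945313 (exon 28) had 1416, 1658, 142 and 1234 reads in AMPKα1 and 1542, 1814, 2306 and 962 in AMPKα2. APS 76765901 (exon 253) had 1874, 1214, 447 and 1221 reads in AMPKα1 and 1471, 1468, 1800 and 821 in AMPKα2. At APS 76753460 (exon 274) the AMPKα1 libraries had 883, 1151, 59 and 1458 reads and the AMPKα2 libraries 960, 1838, 1837 and 731. These 3 sites lie in different exons, and at each of them AMPKα1 WT 1 had the fewest reads of the 8 libraries. APS 76726718 (exon 288) had 420, 824, 58 and 1194 reads in AMPKα1 and 1353, 1037, 1283 and 581 in AMPKα2. For APS 76710580 (exon 307) the counts were 308, 216, 453 and 1081 in AMPKα1 and 1406, 1344, 1105 and 567 in AMPKα2, the latter with both KO libraries above both WT libraries. APS 76797852 (exon 197) had 581, 1124, 246 and 1146 reads in AMPKα1 and 615, 827, 848 and 388 in AMPKα2.

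Reads were spread over far fewer sites in AMPKα1. A read was seen at 76, 72, 102 and 90 of the 370 APSs in AMPKα1 KO 1, KO 2, WT 1 and WT 2 and at 367, 367, 368 and 364 in AMPKα2. The 10 strongest sites of each library held 74.6 to 77.2% of its Ttn reads in AMPKα1 and 30.1 to 39.5% in AMPKα2. To reach 90% of the Ttn reads took 21, 22, 29 and 22 sites in AMPKα1 but 202, 183, 182 and 184 in AMPKα2. Over the 4 libraries of a model, 219 APSs (59.2%) had no read in AMPKα1, and 0 had no read in AMPKα2. These 219 were not all faint, since they held 56404 reads in AMPKα2, or 34.2% of the Ttn reads there, and up to 1446 each. By location, 177 of them lay in internal exons, 41 in introns and 1 in the terminal exon. At least 16 reads over the 4 libraries were reached by 102 Ttn APSs in AMPKα1 and 356 in AMPKα2, of which 91 did so in both. The order was opposite over all 56483 APSs, of which 44024 reached this in AMPKα1 and 23218 in AMPKα2. A read in all 8 libraries was seen at 43 APSs.

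This absence was shared with Neb. No read in AMPKα1 was found at 67.9% of Neb APSs, against 11.7% of the APSs of all genes other than Ttn, Neb included. Sites of other genes were mostly weaker and more often terminal, so internal exon APSs with at least 100 reads in AMPKα2 were compared as well. Of these, 62.6% of 219 in Ttn, 72.6% of 62 in Neb and 39.7% of 945 in all genes other than Ttn had no read in AMPKα1. Within the AMPKα1 groups, strong sites could also be missing from a single library. Of 45 Ttn APSs that reached 50 reads in at least one AMPKα1 KO library, 8 were at 0 in the other KO library, and in AMPKα1 WT it was 4 of 35. In AMPKα2 the counts were 0 of 263 (KO) and 0 of 202 (WT). These counts were made for Ttn only, so they do not set it apart from other genes.

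**Figure D3:**
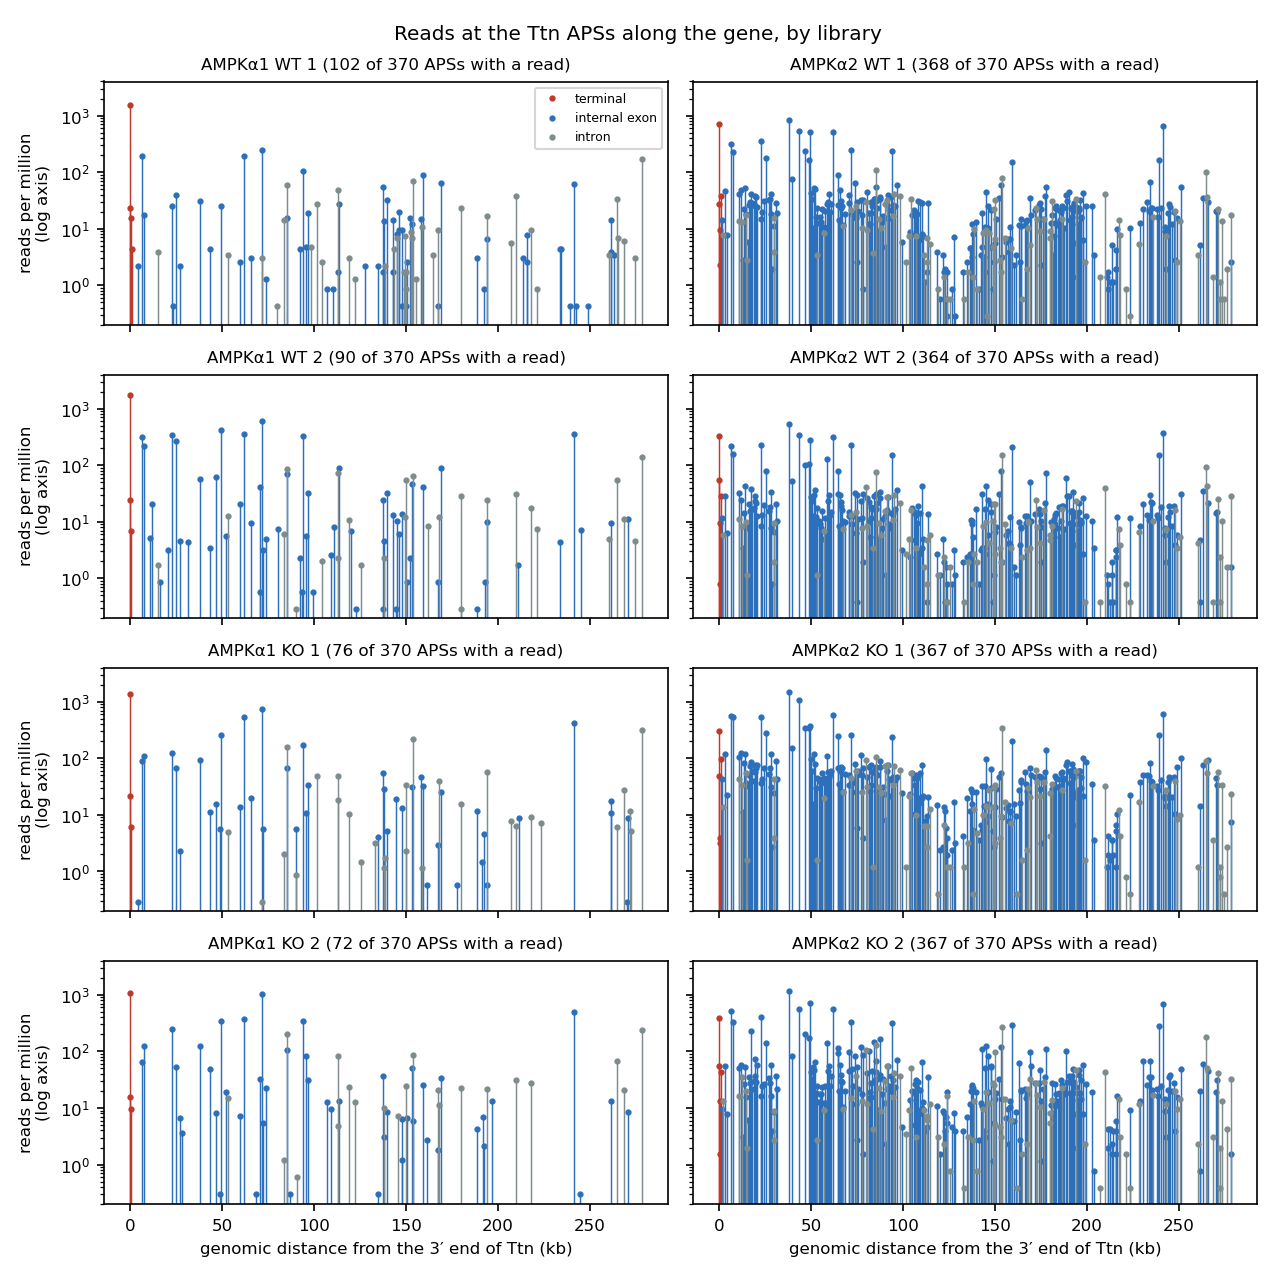
Level of the 370 Ttn APSs (RPM, log axis) by genomic distance from the 3′ end of the gene in kb, with a panel per library and colours for the location of a site. Sites with no read are not drawn, so that 72 to 102 sites appear in the AMPKα1 panels and 364 to 368 in the AMPKα2 panels.

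Exonic Ttn reads were also summed in 12 bins of 10 kb of exon sequence, counted from the 3′ end. The first bin, which holds the terminal exon, took 35.4, 26.4, 58.9 and 40.2% of the exonic Ttn reads in AMPKα1 KO 1, KO 2, WT 1 and WT 2 and 10.5, 10.2, 13.3 and 11.7% in AMPKα2. In RPM per kb of exon, it stood at 162, 132, 178 and 233 in AMPKα1 and at 198, 153, 147 and 90.0 in AMPKα2, ranges that overlap. Further from the 3′ end the models separated. In the ninth bin, 80 to 90 kb from the end, the values were 1.84, 1.34, 0.389 and 0.117 in AMPKα1 and 148, 88.7, 66.3 and 52.7 in AMPKα2. In the tenth bin, 90 to 100 kb, they were 0.933, 1.31, 0.649 and 1.17 in AMPKα1 and 62.6, 33.0, 27.5 and 15.4 in AMPKα2. In AMPKα1 the profile did not fall evenly, as the eleventh bin, which holds APS 76945313, returned to 41.3, 50.5, 8.44 and 36.4.

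In AMPKα2, both KO libraries were above both WT libraries in 12 of the 12 bins, and the ratio of the KO mean to the WT mean was 1.48 in the first bin, 2.23 in the tenth, and between these values in the others. In AMPKα1, both KO libraries were above both WT libraries in 5 bins and below them in 2, and the ratio ran from 0.686 to 6.28. The highest of these was in the ninth bin, where no AMPKα1 library had more than 63 reads.

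**Figure D4:**
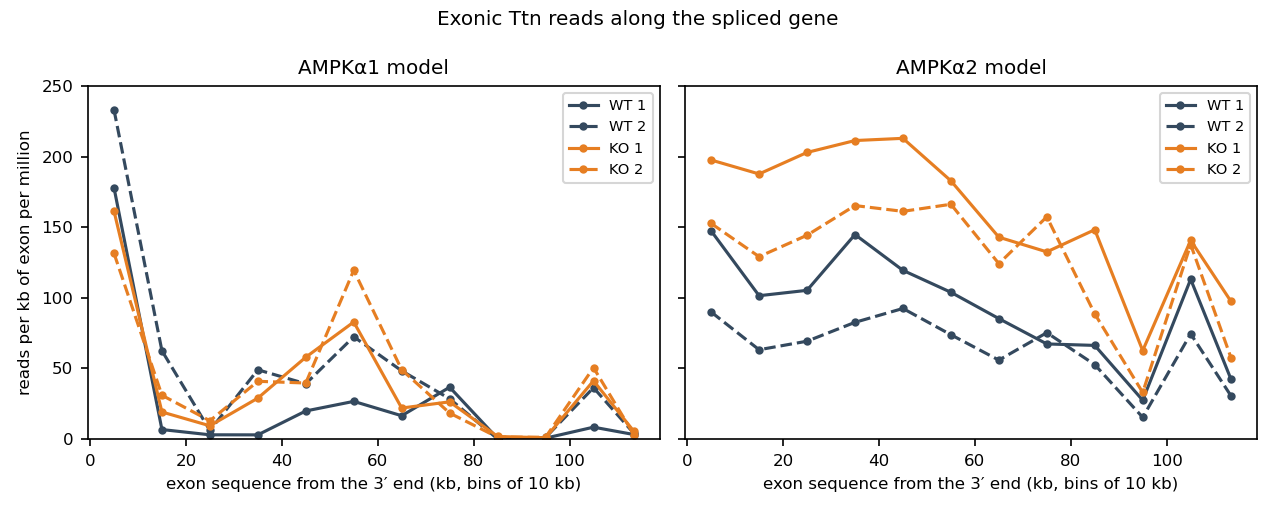
Exonic Ttn reads (RPM per kb of exon) in 12 bins of exon sequence counted from the 3′ end (linear axes), with a line per library, KO in orange and WT in dark blue. The first bin spans 132 to 233 in AMPKα1 and 90.0 to 198 in AMPKα2, and the tenth 0.649 to 1.31 and 15.4 to 62.6.

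At the 5′ end of the gene, 1 site in the first intron stood out in AMPKα1. APS 76982149 had 1096, 786, 389 and 475 reads in AMPKα1 KO 1, KO 2, WT 1 and WT 2 against 60, 83, 61 and 74 in AMPKα2, and its log2 fold change was 0.45 (SE 0.50) in AMPKα1 and 0.30 (SE 0.42) in AMPKα2. Its neighbours were low. The most upstream APS, 76982384 in the first exon, had 0 reads in AMPKα1 and 19, 4, 9 and 4 in AMPKα2. APS 76980075 had 0 reads in AMPKα1 and 7, 11, 7 and 4 in AMPKα2. APS 76978505 had 0, 0, 7 and 16 reads in AMPKα1 and 1, 0, 2 and 0 in AMPKα2, and APS 76977053 had 0 in AMPKα1 and 87, 34, 48 and 26 in AMPKα2.

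The bases around the sites were read from the annotated transcripts, so intronic sites have none here. They were read at the single position that names a cluster. Ttn clusters had a median width of 253.5 bases, against 29 for other APSs, so the letters do not describe reads elsewhere in a wide cluster. Only sites with all 30 downstream bases in their exon enter the counts of downstream letters. An A-rich stretch, meaning a run of at least 7 A or at least 8 A within 10 bases in the 30 bases downstream, followed 14 of 221 internal exon sites of Ttn (6.33%, 95% Wilson interval 3.81 to 10.4%). It followed 5 of 65 in Neb (7.69%). In all genes other than Ttn, Neb included, it followed 1159 of 4634 internal exon sites (25.0%) and 2145 of 9348 terminal sites (22.9%). Short runs were common in Ttn. Of its 221 internal exon sites, 123 (55.7%) were directly followed by AA and 76 (34.4%) by AAA, while in the whole Ttn-203 transcript, 30.9% of whose bases are A, 10.3% of positions are followed by AA and 3.55% by AAA. Among other genes AA directly followed 43.8% of internal exon sites and 37.3% of terminal sites. AAA is itself a case of AA, so these counts overlap. Leading T bases were trimmed from the reads, which also takes off A bases of the transcript next to the tail. Sites are thus placed before such A bases. The Ttn-203 values count every position, so they are no like-for-like baseline for the sites.

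Sites read in both models and sites read only in AMPKα2 differed in these letters. Of the internal exon sites with at least 16 reads in each model, 9 of 52 (17.3%) had an A-rich stretch and 76.9% were followed by AA. Of those with no AMPKα1 read, 3 of 141 (2.13%) had an A-rich stretch and 48.2% were followed by AA. Shares of reads were taken only over internal exon sites with 30 bases left in their exon, so they are not shares of all internal exon reads. In Ttn that leaves out APS 76775609, the strongest internal site of the AMPKα1 libraries. A-rich sites held 54.7, 42.7, 41.5 and 37.3% of the Ttn reads so counted in AMPKα1 KO 1, KO 2, WT 1 and WT 2. In AMPKα2 they held 11.7, 15.3, 17.7 and 15.6%. Other genes had 37.1, 35.4, 29.1 and 32.0% in AMPKα1 and 8.56, 13.6, 13.9 and 12.9% in AMPKα2. The lower share in AMPKα2 was thus seen in Ttn and in other genes. Because the libraries chose which sites enter each class, these shares carry no test.

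Polyadenylation signals were rare upstream of the internal sites. AATAAA was searched on the transcript strand in the 50 bases that end at the position naming a cluster. It was present at 2 of 225 internal exon sites of Ttn (0.889%) and ATTAAA at 1 (0.444%). In other genes AATAAA was present at 13.2% of internal exon sites and 45.8% of terminal sites, and ATTAAA at 5.21 and 15.9%. The Ttn-203 transcript of 106824 bases holds AATAAA 33 times. AATAAA stands in the printed end of Ttn-203 and ATTAAA in that of Ttn-202, and the last 30 bases of Ttn-207 hold neither.

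In AMPKα2, nearly all Ttn sites leaned towards higher levels in KO, but no single site passed the test. Of 356 Ttn APSs tested, 0 were called higher or lower at an adjusted p under 0.1 (edgeR quasi-likelihood test), where 0.0258% of all APSs tested were called higher and 0.0301% lower. At an unadjusted p under 0.05, 159 were higher and 0 lower, against 5.12% and 2.49% of all APSs tested. The log2 fold change was above 0 at 340 of the 356, against 50.8% of all APSs tested, and its median was 1.19, against 0.01 over all APSs tested. Both KO libraries were above both WT libraries at 212 sites, against 18.8% of all APSs, and below them at 2, against 20.9%. DESeq2, which was used in the study, called 13 Ttn sites higher and 0 lower out of 261 with an adjusted p, where 1.82% of all APSs with one were called higher and 0.338% lower. The sites share their mRNA, so they are not separate observations of KO.

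The size of this difference rested in part on AMPKα2 KO 1, the library with the low scaling factor. Without it, the median log2 fold change over 342 Ttn sites was 0.37, with 268 above 0 and 49 higher and 1 lower at an unadjusted p under 0.05. Without AMPKα2 KO 2, the median was 1.66, with 329 of 343 above 0 and 269 higher at an unadjusted p under 0.05. With library totals in place of TMM factors the median was 1.02, and the median over all APSs was −0.03.

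By location, the 5 terminal sites had a median log2 fold change of 0.39, the 270 internal exon sites tested one of 1.25 and the 81 intron sites tested one of 1.08. Among internal exon sites, 267 of 270 were above 0 and 128 were higher at an unadjusted p under 0.05, as were 30 of the intron sites and 1 of the terminal sites. For APSs of other genes the medians were −0.15 at 10313 terminal sites, of which 40.0% were above 0, 0.24 at 4311 internal exon sites (62.0%) and 0.18 at 3237 intron sites (58.1%).

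**Figure D5:**
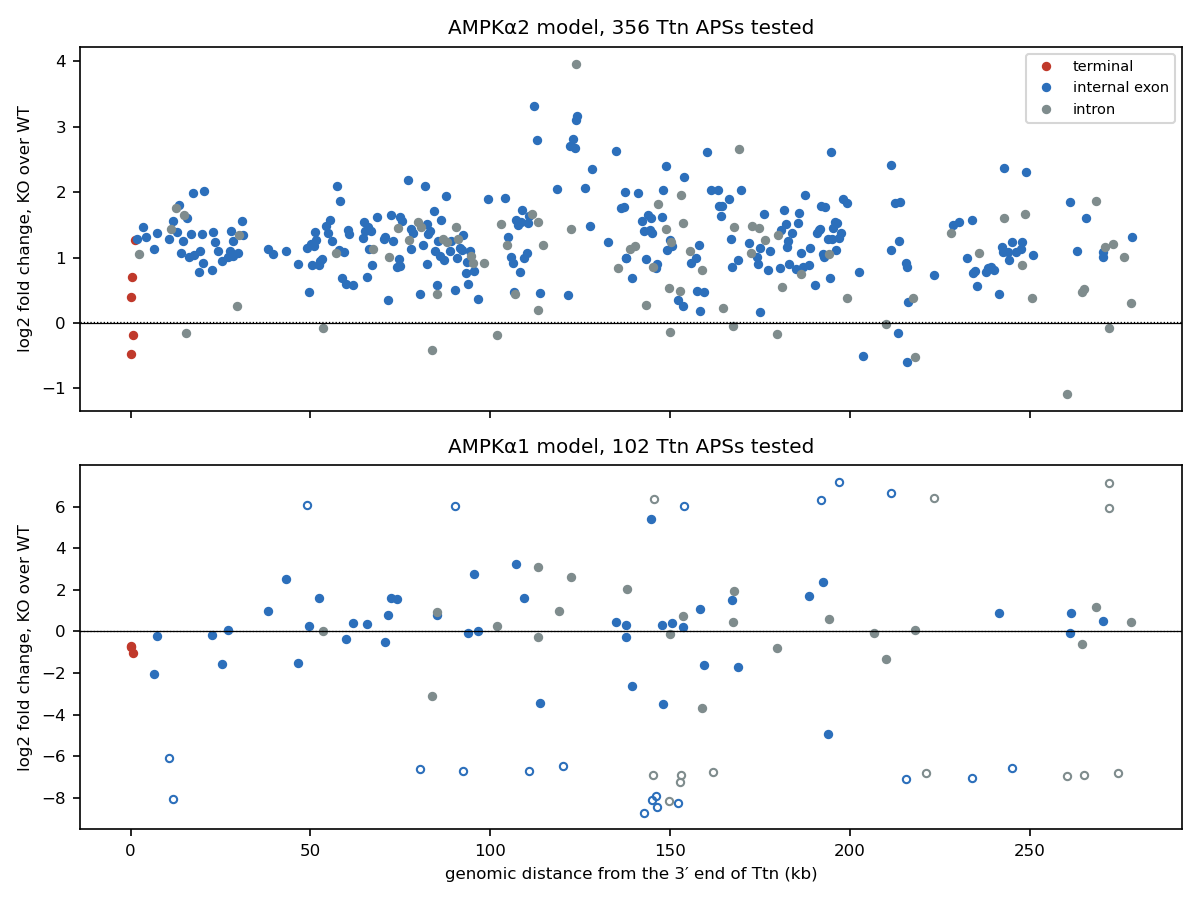
Log2 fold change of KO over WT (edgeR) at each Ttn APS tested, by genomic distance from the 3′ end in kb, with colours for location, and open circles where a group has no read, whose fitted values are no measure of size. In AMPKα2, 340 of 356 points lie above 0, and in AMPKα1, 52 of 102. The dotted line is the median over all APSs tested.

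The site with the lowest p in AMPKα2 was APS 76873039, in an intron, with 53 and 84 KO reads against 18 and 9 WT reads. Its log2 fold change was 2.65 (SE 0.42), with an adjusted p of 0.247 by edgeR. APS 76781011 (exon 231) had 296 and 309 KO reads against 116 and 59 WT reads, a log2 fold change of 2.18 (SE 0.36) with an adjusted p of 0.295 by edgeR. APS 76785715 (exon 223) had 179 and 267 KO reads against 67 and 58 WT reads (log2 fold change 2.09, SE 0.36), and APS 76791600 (exon 210) had 227 and 438 KO reads against 121 and 85 WT reads (log2 fold change 1.94, SE 0.34). APS 76873733 (exon 97) had 128 and 145 KO reads against 62 and 26 WT reads, a log2 fold change of 2.03 (SE 0.39). In each of these 5 sites both KO libraries were above both WT libraries, and all 5 had 0 reads in the 4 AMPKα1 libraries.

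Of the 16 AMPKα2 sites with a log2 fold change below 0, the 5 with the lowest p had unadjusted p-values of 0.139 or more by edgeR. They were the Ttn-207 end 76964276 (−1.09), the terminal site 76703983 (−0.47), APS 76921965 (−0.52), APS 76919789 (−0.59) and APS 76787839 (−0.41). Apart from the terminal site, none of them had more than 27 reads in any AMPKα2 library.

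Summed over the gene, Ttn in AMPKα2 stood at 34663 and 17448 CPM (counts scaled to 1000000 after TMM) in KO and at 12879 and 10648 in WT, or 26055 ± 12173 against 11764 ± 1578 (SD, n = 2). Both KO libraries were above both WT libraries. The log2 fold change was 1.15 (SE 0.41), with an adjusted p of 0.423 by edgeR, where 0.37% of genes were called higher and 0.313% lower, and DESeq2 gave 1.16 with an adjusted p of 0.0935. Leaving out AMPKα2 KO 1 gave 0.57 and leaving out AMPKα2 KO 2 gave 1.56, each with a single KO mouse left. Library totals gave 0.85, beside a median of −0.19 over all genes on that scale. The groups of sites behind this sum differed. Terminal sites stood at 753 and 505 CPM (KO) against 822 and 515 CPM (WT), a log2 fold change of −0.09 (SE 0.33). Internal exon sites stood at 30147 and 14652 CPM (KO) against 10886 and 8875 CPM (WT), a log2 fold change of 1.18 (SE 0.41), and intron sites at 4020 and 2030 CPM (KO) against 1336 and 1333 CPM (WT), one of 1.18 (SE 0.36). Their adjusted p-values by edgeR were 0.966, 0.488 and 0.407. Without AMPKα2 KO 2, the log2 fold change was 1.60 for internal exon sites and 1.58 for intron sites. Without AMPKα2 KO 1 their values were 0.57 and 0.61.

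Whether a site moved differently from the rest of the gene was tested as well (edgeR's diffSpliceDGE). In AMPKα2, 0 of the 356 sites were called in either direction, against 0.0136% of all APSs called higher and 0.00681% lower, with 3 higher and 1 lower at an unadjusted p under 0.05, against 2.34% and 0.96% of all APSs. The adjusted p for Ttn as a whole was 1.00 by this edgeR test. The test takes the sites of a gene as separate observations, although they share their mRNA. Its result was not stable without AMPKα2 KO 1 or AMPKα2 KO 2. Such fits leave a single KO mouse, so their p-values are not given. In AMPKα1, 0 of 102 sites were called, against 0% higher and 0.00601% lower, with 0 higher and 8 lower at an unadjusted p under 0.05, against 0.752% and 1.64% of all APSs. The gene's adjusted p was 0.408 by the same edgeR test.

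In AMPKα1, Ttn sites moved in both directions and the libraries of a group differed widely. The biological coefficient of variation of APS counts was 156% in AMPKα1 against 38.8% in AMPKα2. Of 102 Ttn APSs tested, 0 were called by edgeR, where 0% of all APSs were called higher and 0.00454% lower, and DESeq2 called 0 of 55 with an adjusted p (0.271% of all APSs with one were called higher and 1.1% lower). At an unadjusted p under 0.05, 1 was higher and 11 lower, against 0.691% and 2.38% of all APSs tested. The median log2 fold change was 0.02, the same as over all APSs tested, and 52 were above 0. With library totals in place of TMM factors, both medians were 0.38. Both KO libraries were above both WT libraries at 12 sites, against 9.02% of all APSs, and below them at 21, against 18.2%. Without AMPKα1 WT 2 the median was 0.67, and without AMPKα1 KO 2 the median was −0.72.

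The only Ttn site higher in AMPKα1 KO at an unadjusted p under 0.05 was APS 76799569 (exon 193), with 37 and 267 KO reads against 11 and 19 WT reads. Its log2 fold change was 2.76 (SE 1.21) and its adjusted p 0.543 by edgeR, and the higher KO library set most of it. After it, among sites with a log2 fold change above 0, came APS 76775609 (0.77), APS 76747326 (2.52), APS 76789198 (0.95) and APS 76742310 (1.00).

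Among sites lower in AMPKα1 KO, APS 76710580 had the lowest p. It had 308 and 216 KO reads against 453 and 1081 WT reads, or 80.6 and 56.9 CPM against 264 and 306 CPM. The log2 fold change was −2.05 (SE 0.53), with an adjusted p of 0.543 by edgeR. APS 76846862 (exon 143) was at 0 in KO against 33 and 46 WT reads, with an adjusted p of 0.543 by edgeR. With each KO library counted at 3 reads, APS 76846862 was 20.5-fold lower in KO, which does not cover the spread between mice. APS 76872732 (exon 99) had 87 and 113 KO reads against 149 and 303 WT reads, a log2 fold change of −1.72. APS 76843432 (exon 146) had 18 and 28 KO reads against 75 and 110 WT reads, with one of −2.62. For APS 76729308 (exon 284) there were 230 and 172 KO reads against 92 and 923 WT reads, and the log2 fold change of −1.58 became 0.00 without WT 2. In CPM, WT 1 was above WT 2 at APS 76846862 (19.2 against 13.0), APS 76843432 (43.7 against 31.2) and APS 76872732 (86.9 against 85.8).

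Over the gene, Ttn in AMPKα1 stood at 5496 and 5362 CPM (KO) against 4600 and 6443 CPM (WT), and the KO values lay within the range of the WT values. The log2 fold change was −0.02 (SE 0.32) with an adjusted p of 0.999 by edgeR, where 0% of genes were called in either direction, and it was 0.20 with library totals, beside a median of 0.22 over all genes on that scale. By location, terminal sites stood at 1355 and 1011 CPM (KO) against 2044 and 1756 CPM (WT), a log2 fold change of −0.68 (SE 0.37) with an adjusted p of 0.697 by edgeR. Internal exon and intron sites had log2 fold changes of 0.14 (SE 0.43) and 0.33 (SE 0.38). The terminal exon was thus the location where both AMPKα1 KO libraries lay below both WT libraries, without passing the test. Intron sites stood at 1022 and 837 CPM (KO) against 811 and 669 CPM (WT), with both KO libraries above both WT libraries. Single APSs of other genes leaned alike at terminal and intron sites in AMPKα1. Their median log2 fold changes were −0.37 at terminal sites (40.7% above 0), −0.13 at internal exon sites (47.0%) and 0.58 at intron sites (58.1%).

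The difference between the KO effects of the models was tested over all 8 libraries (edgeR quasi-likelihood test of the interaction). This joint fit gave each APS a single dispersion over both models. Fitted apart, the biological coefficient of variation of APS counts was 156% in AMPKα1 and 38.8% in AMPKα2. The difference was not tested with a separate dispersion per model. Of 370 Ttn APSs, 10 were called, all with the KO over WT log2 fold change higher in AMPKα2 than in AMPKα1. Of all APSs, 0.129% were called in this direction and 0.0142% in the other. The difference is signed and does not say in which model the change was larger in size. At an unadjusted p under 0.05, 54 Ttn APSs were higher and 1 lower, against 5.44% and 1.53% of all APSs tested. Among the 10, APS 76710580 was the only one with reads in all 8 libraries, at 698 and 440 CPM in AMPKα2 KO against 286 and 236 in AMPKα2 WT. Its log2 fold changes were −2.05 in AMPKα1 and 1.12 in AMPKα2 when the models were fitted apart, and in the joint fit they differed by 3.20 (SE 0.60), with an adjusted p of 0.0619 by edgeR. The other 9 had 0 to 2 reads in the AMPKα1 KO libraries. No Ttn site was called without AMPKα2 KO 1, without AMPKα2 KO 2 or with library totals. For the gene as a whole the difference was 1.15 (SE 0.55), or 0.59 without AMPKα2 KO 1 and 0.65 with library totals, with an adjusted p of 0.733 by edgeR, where 0.039% of genes were called higher and 0.026% lower, and 4.75% and 2.23% had an unadjusted p under 0.05.

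A list of 36 genes of titin partners, other sarcomere proteins and splicing factors was set beside Ttn, and 35 of them were in the table and tested in both models. In AMPKα2, 0 were called in either direction by edgeR, with 5 higher and 2 lower at an unadjusted p under 0.05 (4.85% and 3.7% of all genes), 26 had a log2 fold change above 0, and their median was 0.30, against −0.01 over all genes. In AMPKα1, 0 were called, with 0 higher and 2 lower at an unadjusted p under 0.05 (1.37% and 2.84% of all genes), 10 were above 0, and the median was −0.27, against −0.03 over all genes.

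Among binding partners, Tcap (telethonin, which caps titin's N-terminal end at the Z-disc) had 3693 and 5983 AMPKα2 KO reads against 4318 and 2574 WT reads. Its log2 fold change was 0.92 (SE 0.27) in AMPKα2, with an adjusted p of 0.287 by edgeR, and −0.83 (SE 0.30) in AMPKα1, with one of 0.763. Mybpc1, slow myosin-binding protein C of the A-band, had 893 and 1000 AMPKα2 KO reads against 772 and 560 WT reads, a log2 fold change of 0.97 (SE 0.27). Neb had a log2 fold change of 0.88 (SE 0.33) in AMPKα2 and −0.35 in AMPKα1. Mylk2, skeletal myosin light chain kinase, had a log2 fold change of 0.60 (SE 0.23) in AMPKα2. The 2 list members that were lower at an unadjusted p under 0.05 in AMPKα2 were Ankrd1, an ankyrin repeat protein of the titin I-band complex, with 13 and 27 KO reads against 164 and 39 WT reads (−1.81, SE 0.47), and the splicing repressor Ptbp1, with 2 and 5 KO reads against 17 and 10 WT reads (−1.50, SE 0.63). Rbm20, the main splicing regulator of the titin I-band, had 41 and 44 AMPKα2 KO reads against 25 and 37 WT reads, and its log2 fold change was 0.83 (SE 0.44). In AMPKα1 the 2 lower genes were Tcap and the Z-disc gene Myoz1 (−1.05, SE 0.40).

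Genes were ordered by how like their pattern over the 8 libraries was to that of Ttn. Likeness was measured as the root mean square difference of log2 CPM, centred within each model, over 1307 genes with at least 50 reads in every library. Among the nearest genes, the difference from Ttn was 0.214 for Eef1a2, 0.236 for Fn1, 0.248 for Bgn and 0.262 for Ube3c, against a median of 0.589 over the genes compared. Ttn itself deviated from its model's mean by 0.02, −0.02, −0.24 and 0.25 in AMPKα1 KO 1, KO 2, WT 1 and WT 2 and by 1.03, 0.04, −0.40 and −0.67 in AMPKα2. The largest of these was in AMPKα2 KO 1.

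Markers of other cell types and fibre types moved with some of these groups. The summed level of 5 slow fibre markers was 1152 to 1821 RPM in AMPKα2 KO and 485 to 891 in AMPKα2 WT, and 2185 to 4206 in AMPKα1 KO and 1168 to 1280 in AMPKα1 WT. The 5 fibroblast markers summed to 9687 to 16016 in AMPKα1, 2068 to 2238 in AMPKα2 KO and 1621 to 1824 in AMPKα2 WT. The 4 adipocyte markers reached 2024 in AMPKα1 KO 2 against 324 to 443 in the other AMPKα1 libraries, and the 4 immune markers 349 against 49.0 to 101. In AMPKα2, WT 1 stood apart, at 449 for adipocyte markers against 106 to 138 in the other libraries, 207 for immune markers against 61.9 to 82.2 and 210 for Schwann cell markers against 46.6 to 79.5. Skeletal fibre markers summed to 80383 and 73376 in AMPKα1 KO and to 110388 and 94251 in AMPKα1 WT. Endothelial markers (3 of 3 present) summed to 115 to 204 in AMPKα1 and 20.4 to 33.0 in AMPKα2, and smooth muscle markers (3 of 3) to 87.7 to 177 and 30.6 to 60.6. Their part in the Ttn values was not tested.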

How the data were processed

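WTTS-seq libraries from 8 mice were sequenced on an Ion PGM by the authors, who trimmed leading T bases, mapped reads with TMAP, clustered read starts within 24 bases into APSs and assigned genes with Cuffcompare. The deposited table holds raw read counts per APS and library, on GRCm38.p5 per the labels. There are no molecular identifiers, so intervals cover counting error only. Groups were taken from the labels, with 2 mice each. Sites were placed on GENCODE M21 exons, with up to 2000 bases past the end counted as terminal, and bases were read from its transcripts. The genome sequence was not used here, so intronic bases were not read.

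Within each model KO was set against WT with edgeR 4.0.16 (R 4.3.3, TMM, robust quasi-likelihood test) over all APSs, genes or gene locations with at least 16 reads over the 4 libraries. Calls used a Benjamini-Hochberg adjusted p under 0.1. The SE is the log2 fold change divided by the square root of F. The interaction was fitted over 8 libraries, and site usage with diffSpliceDGE. Exact permutation tests of 2 against 2 libraries cannot go below 0.333. Alternatives were DESeq2 1.42.0, other scalings and filters, a replicate block, and leaving out each library. Scripts were tested on simulated data. Figures were drawn with matplotlib 3.10.9 from tables made in Python 3.11.15.

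Results for 1 gene are not reported here. Sites were named by a fixed rule: the sites nearest the 3′ end and in the terminal exon, the 10 with the most reads, the 5 nearest the 5′ end, those within 50 bases of another transcript's end, and the 5 with the lowest p per model and direction. The rule also named the study's own list of changed Ttn sites, which is not used here because it holds the study's findings. Sites called in the interaction, the partner genes with an unadjusted p under 0.05 and Rbm20 were named after their values were seen. The members, lists and tests were chosen with earlier results of these data known.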

Additional observations from a re-analysis of the deposited data

Results flagged for a closer look

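The interaction test of edgeR called 10 Ttn sites as differing in KO effect between the models (Benjamini-Hochberg adjusted p under 0.1). It used a single dispersion per APS over both models, although APS counts varied more between AMPKα1 libraries (156% against 38.8%). The KO over WT log2 fold change was always higher in AMPKα2 than in AMPKα1. This signed difference does not say in which model the change was larger in size. APS 76710580 had a difference of 3.20 on the log2 scale and reads in all 8 libraries. The other 9 had no more than 2 reads in any AMPKα1 KO library, so their fitted differences depend on the prior count and are no measure of size. These were 9.45 for APS 76846862, 8.81 for APS 76848946, 8.08 for APS 76850057, 8.01 for APS 76853590, 7.92 for APS 76937791, 7.86 for APS 76856310, 7.35 for APS 76796408, 6.64 for APS 76808507 and 6.14 for APS 76897776. APS 76848946 had 19 and 36 reads in AMPKα1 WT, and APS 76808507 had 6 and 7. Counting each AMPKα1 KO library at 3 reads, they were 13.5-fold and 3.48-fold lower in AMPKα1 KO. These folds do not cover the spread between mice.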

How the results depend on the processing

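Over 57 results and 648 alternatives, 76 fell below the threshold, 54 passed it, 17 moved further and 10 changed sign. The other 491 kept their direction and their side of the threshold or moved by less than the spread. These 491 also hold counts of calls that changed little, such as 15 interaction calls with DESeq2 against 10. The count of Ttn sites called in AMPKα1 was 0 and became 36 with all 8 libraries fitted together, a fit with a single dispersion over both models. In AMPKα2 it was 0 and became 79 with no filter on low counts, 13 with DESeq2 and 52 with a replicate block, and stayed 0 when any library was left out. KO and WT mice share only a replicate number, and the deviations of same-numbered libraries correlated by 0.00904 in AMPKα1 and 0.0275 in AMPKα2, so that pairing was not used. The causes were not tested.

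The AMPKα1 gene value changed sign to 0.0174 with RLE factors, 0.0215 with DESeq2 and 0.20 with library totals, and ran from −0.25 to 0.28 when a library was left out. In AMPKα2 the gene passed the threshold with no filter (1.14) and with DESeq2 (1.16), and ran from 0.57 to 1.56 when a library was left out. With no filter, internal exon (1.17) and intron sites (1.17) of AMPKα2 also passed. Leaving out a library gave 0.57 to 1.60 for internal exon, 0.61 to 1.58 for intron and −0.40 to 0.28 for terminal sites of AMPKα2, and −0.31 to 0.78 for internal exon sites of AMPKα1. It gave 0 to 3 usage calls and gene-level usage p-values of 0.000366 to 1.00 (adjusted, edgeR) in AMPKα2. Leaving out a library moved APS 76729308 between −2.32 and 0.00327 in AMPKα1, and in AMPKα2 APS 76703983 between −0.86 and 0.0262 and APS 76787839 between −1.22 and 0.0291.

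The 10 interaction calls became 1 with at least 50 reads, 1 with at least 16 reads in each model, 0 with library totals, 2 with a replicate block within model, and 0 to 19 when a library was left out. The whole-gene interaction ran from 0.59 to 1.55 when a library was left out. The difference in terminal share ran from −20.9 to −5.28 points in AMPKα1 when a library was left out, and in AMPKα2 became −4.03 points over APSs read in both models. The range between AMPKα1 libraries limits what 2 mice a group can show there.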
